A study of Mus musculus with 4 samples.

Results

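Amino acid transporters are membrane carriers that bring amino acids into the cell or swap one for another. The 9 carrier genes described here are Slc7a1, Slc7a5, Slc7a6, Slc7a11, Slc3a2, Slc1a4, Slc1a5, Slc38a1 and Slc38a2, taken by name from the arrays with every probe they have. They have 13 probes, against 36315 gene names on the array, and all 9 were among the 17554 genes bright enough to test.

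The cells were 32D-EpoR, a mouse myeloid progenitor line that depends on interleukin-3 and carries an introduced erythropoietin receptor. Cells of every sample were washed out of the WEHI-conditioned medium that feeds the line and kept in RPMI with 10% FBS. One group then received erythropoietin (Epo), the hormone of red cell formation, at 10 U/ml, and the other received none. Each group has 2 single-colour arrays, so each value rests on 2 samples a group. The design text gives 2 experiments on cells of different passages, which are read here as the replicate numbers. The lengths of the cytokine-free culture and of the Epo treatment are not stated in the labels.

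Growing blood cells need amino acids for protein, nucleotides, polyamines and glutathione, and cytokine signals are known to raise nutrient uptake. The carriers fall into groups. Slc7a1 brings in arginine and lysine. Slc1a5 and Slc1a4 exchange small neutral amino acids, with glutamine a main cargo of the former. Slc38a1 and Slc38a2 pump neutral amino acids in together with sodium. Slc3a2 encodes the heavy chain of CD98, which by itself carries nothing and holds light chains at the surface. Its partners are Slc7a5, which takes up leucine and other large neutral amino acids, Slc7a6, which exchanges cationic for neutral ones, and Slc7a11, which imports cystine in exchange for glutamate. Slc7a5 uses glutamine as an exchange substrate, so its work is linked to carriers such as Slc1a5.

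The probes decide which part of each transcript was read. All are 60 bases long and on mm9, the build of the files. The first 30 bases are given here for those on which the results turn, and the whole probe for the one Slc7a5 probe that parts from the other.
Slc7a1, chr5:149139957-149140016, minus strand: aggcttgttttggtttgcgaaatactttga
Slc1a5 at base 2161, chr7:17383027-17383086, plus strand: aacagtaccagggacccaccggggactcca
Slc1a5 at base 2493, chr7:17383359-17383418, plus strand: cctaccctctcaggaaatgggttgtcctgt
Slc38a2, chr15:96518491-96518550, minus strand: aaggttccaaatgaatttcaggccaaattc
Slc7a6, chr8:108722470-108722529, plus strand: aggacatttcaagttttagaatttgtgaac
Slc3a2, chr19:8782189-8782248, minus strand: gagggcttgctgttacagttcccctttgtg
Slc7a5 at base 3363, chr8:124405136-124405195, minus strand: gtggttataatgtcttttactattgtatta
Slc7a5 at base 533, chr8:124430996-124431055, minus strand: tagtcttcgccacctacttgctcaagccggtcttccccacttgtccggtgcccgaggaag

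The base number is the start in the transcript as the files give it. No annotation of the files' build was used here, so exon and coding positions are not stated. The 2 probes of Slc1a5 lie 332 bases apart both in the transcript and in the genome. The 2 probes of Slc7a5 lie 2830 bases apart in the transcript and 25860 in the genome. The one at base 3363 has a stop codon in every reading frame of its strand, and the one at base 533 has 2 frames without a stop. The files list 2 RefSeq transcripts for each of the Slc7a5 probes, as for the Slc3a2 probe, and 3 for each Slc38a1 probe. Whether the added transcripts are of the same gene or of a near copy was not checked. Signal from them cannot be told apart.

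Of the 9 genes, 4 rose with Epo relative to the other genes on the array, 0 fell and 5 did not pass the threshold, a limma p of 0.05 adjusted over all 17554 genes. The 4 were Slc7a1, Slc1a5, Slc38a2 and Slc7a6. At an unadjusted p under 0.05 there were 5, the added one being Slc7a11, which lay lower. Among all genes tested 13.1% rose and 14.3% fell. The median log2 change of the 9 was 0.25, and that of all genes was -0.062. For the same 4 genes both Epo arrays lay above both arrays without Epo, as for 30.4% of all genes. Slc3a2 and Slc7a11 lay below on both, as 38.4% of all genes did, and the groups overlapped for Slc7a5, Slc1a4 and Slc38a1. These counts read Slc7a5 at base 3363 only. At base 533, its dimmer probe, both Epo arrays lay below both arrays without Epo. The log2 change there was -1.09 (adjusted p 0.015 in the limma fit over probes). In that fit 5 of the 13 probes were called higher and 1, this one, lower. With 1 array left out, between 2 and 3 of the 9 genes were called. Leaving out either Epo array left 2 calls, Slc7a1 and Slc1a5. Leaving out no-Epo array 2 left these 2 and a lower call of Slc7a11.

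Each array was scaled to its own 75th percentile, an intensity of 224 and 250 in the arrays without Epo, against 347 and 454 in those with Epo. Without scaling, every log2 change is larger by 0.75, and the median of all genes is 0.68 instead of -0.062. The calls over all genes are then 8230 higher and 364 lower, against 2302 and 2502 with scaling and 1878 and 3651 with the percentile over detected probes. Unscaled, 7 of the 9 genes were called higher, all but Slc3a2 and Slc7a11. The unscaled limma fit used a pooled SE of 0.32 with 35108 total degrees of freedom, against 4.57 with scaling. Its p-values therefore do not rest on each gene's own spread over the 4 arrays, and they count the shift of 0.75 as change. Which scaling is nearer to the RNA content of a cell was not tested. In bulk RNA, fewer cells with a transcript and less of it per cell cannot be told apart. Of the myeloid progenitor markers, 10 of 11 were tested and were well above background on all arrays, and Kit was not tested. Their median log2 change was -0.28. Csf2rb2 was called higher (0.49, limma adjusted p 0.045) and Cebpa lower (-0.74, 0.027), 10% each against 13.1% and 14.3% of all genes. Whether these calls hold with 1 array left out is not given here. Their summed scaled signal was 173824 to 181024 without Epo and 156990 to 173125 with Epo. Fewer markers of other lineages were bright enough, with 5 of 9 for the erythroid list, 2 of 7 for the lymphoid, 4 of 8 for the macrophage and 2 of 8 for the stromal. The summed scaled signal was 1190 to 1388 without Epo and 655 to 706 with Epo for the lymphoid genes, 364 to 365 and 195 to 210.3 for the stromal ones, and 4667 to 4748 and 5304 to 5576 for the macrophage ones. Within these sums Pdgfrb fell (-2.45, limma adjusted p 0.0040) while Thy1 lay at 0.18 (0.340), and Adgre1 rose (1.03, 0.0089) while Csf1r fell (-0.79, 0.014). The erythroid sum was 12517 to 14275 without Epo and 8818 to 8881 with it. Gata1 had the largest signal in this sum and fell (-0.68, limma adjusted p 0.023), a change smaller than the shift of 0.75. Of the 5 erythroid genes tested 2 were called lower and 0 higher. Alas2, Slc4a1 and Hbb-b1 were among the markers not tested. The part of these markers in the results was not tested.

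**Figure D1:**
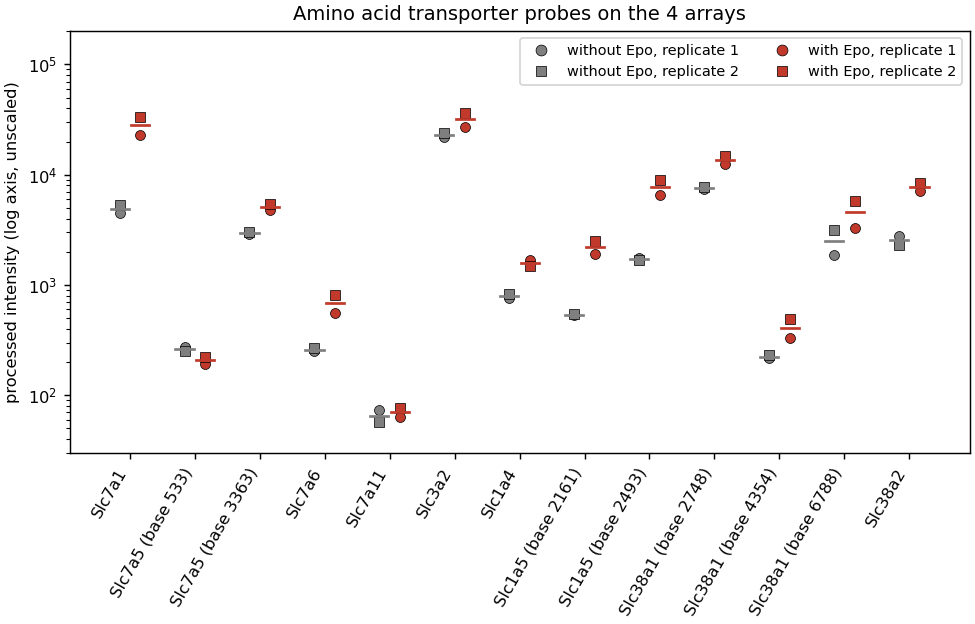
Processed intensity, before scaling between arrays, on a log axis for each of the 13 probes of the 9 genes. Grey marks are arrays without Epo and red marks arrays with Epo, circles are replicate 1, squares replicate 2 and bars group means. Slc7a1 reads 4536 and 5320 without Epo and 22761 and 33371 with Epo, whereas the Slc7a11 groups overlap between 56.9 and 77.3.

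Slc7a1, the arginine and lysine carrier, changed most among the 9 genes. Its intensity was 4536 and 5320 without Epo and 22761 and 33371 with Epo. Both Epo arrays stood clear of both others. On the scaled log2 scale the level went from 12.64 ± 0.047 (SD, n = 2) to 14.38 ± 0.12 (SD, n = 2). The rise was 1.74 ± 0.12 (SE), or 3.34-fold (limma adjusted p 0.0048), with 3.24-fold in replicate 1 and 3.46-fold in replicate 2. Only 1.70% of the tested genes changed further upward. The call held in 12 of 13 alternatives. Those on choice of probe and on outlier spots could not move the value of Slc7a1, which has 1 probe with 1 spot. The limma adjusted p ranged from 5.8e-13 to 0.108 over all 13 alternatives. The lowest came from the unscaled fit with its pooled SE. The highest came when dim probes were kept, a setting in which limma called 0 of 36310 genes, with 7148 at an unadjusted p under 0.05.

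Slc1a5, the glutamine exchanger, rose on both of its probes. The probe at base 2493 read 1755 and 1700 without Epo and 6563 and 8967 with Epo. On the scaled log2 scale it rose by 1.40 ± 0.13 (SE), or 2.65-fold (limma adjusted p 0.0066). The probe at base 2161 read 531 and 549 without Epo and 1906 and 2511 with Epo. Its rise was 1.27 ± 0.12 (SE), or 2.42-fold, with an adjusted p of 0.0073 in the limma fit over 23734 probes. The groups do not overlap on either probe. The call of the gene was lost only when dim probes were kept (0.115). The lowest adjusted p, 7.1e-10, came from the unscaled limma fit with its pooled SE.

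Slc1a4, the close relative that carries alanine, serine and cysteine, gave no call. Its single probe read 764 and 821 without Epo and 1687 and 1480 with Epo. After scaling, the log2 change was 0.51 in replicate 1 and -0.0080 in replicate 2, so the groups overlapped. The change was 0.25 ± 0.22 (SE), with a 95% interval of -0.33 to 0.84 and a limma adjusted p of 0.436. The log2 ratio of Slc1a5 to Slc1a4 within an array, which no single factor per array can alter, was 1.20 and 1.05 without Epo and 1.96 and 2.60 with Epo. The ratio was thus higher on both Epo arrays, by 0.76 in replicate 1 and by 1.55 in replicate 2.

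Of the sodium-coupled pair, Slc38a2 was called and Slc38a1 was not. Slc38a2, the member known to be induced when amino acids run short, read 2775 and 2297 without Epo and 7090 and 8460 with Epo. It rose by 0.87 ± 0.19 (SE) on the scaled log2 scale, or 1.83-fold (limma adjusted p 0.033). Both Epo arrays were higher than both others. The call was lost when no-Epo array 2 (0.066), Epo array 1 (0.104) or Epo array 2 (0.069) was left out. Over all alternatives the adjusted p ran from 5.9e-06 to 0.179. The lowest was from the unscaled fit with its pooled SE and the highest with dim probes kept.

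Slc38a1 has 3 probes, and none of them passed. The probe at base 2748 read 7444 and 7807 without Epo and 12430 and 14691 with Epo, a scaled change of 0.080 ± 0.12 (SE) with a 95% interval of -0.25 to 0.41 (limma adjusted p 0.659). The probes at bases 4354 and 6788 gave 0.099 ± 0.13 and 0.11 ± 0.26 (SE) in the fit over probes. The sign of such small values is not fixed, since the value at base 2748 was -0.046 with the percentile over detected probes and -0.032 with quantile normalization. The log2 ratio of Slc38a2 to Slc38a1 within an array was -1.42 and -1.76 without Epo and -0.81 and -0.80 with Epo. It lay higher on both Epo arrays, by 0.61 and 0.97.

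Of the CD98 complex, the heavy chain Slc3a2 gave no call. It read 21861 and 23857 without Epo and 27021 and 36344 with Epo. The unscaled signal was therefore higher on both Epo arrays, while the scaled level was lower on both, with a log2 mean of 14.85 ± 0.026 in the controls and 14.56 ± 0.027 under Epo (SD, n = 2 each). The scaled change was -0.29 ± 0.11 (SE), with a 95% interval of -0.58 to 0.0037 (limma adjusted p 0.120). Without scaling the value turned to 0.46 (adjusted p 0.216). It passed in 0 of 13 alternatives, of which those on choice of probe and outlier spots could not move its value, read from 1 probe with 1 spot.

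Slc7a6, a light chain of CD98, read 252 and 267 without Epo and 552 and 809 with Epo. Its rise was 0.62 ± 0.12 (SE), or 1.54-fold (limma adjusted p 0.028). The rise was seen in both replicates, at 1.41-fold and 1.67-fold. The call is the least firm of the 4, since it was lost whichever array was left out. The change was then 0.54 to 0.70, in fits with 1 array in a group and a larger SE. Over all alternatives the adjusted p ran from 0.00016 to 0.179, the lowest from the unscaled fit with its pooled SE. The log2 ratio of Slc7a6 to Slc3a2 within an array was -6.44 and -6.48 without Epo and -5.61 and -5.49 with Epo, higher on both Epo arrays. For the other light chains, the change of this ratio to Slc3a2 was 0.42 and 0.23 for Slc7a5 at base 3363, and -0.52 and -0.16 for Slc7a11, in replicates 1 and 2.

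Slc7a5, the leucine carrier, differed between its 2 probes. At base 3363 it read 2923 and 3030 without Epo and 4833 and 5416 with Epo, a scaled change of 0.036 ± 0.14 (SE) with a 95% interval of -0.33 to 0.40 (limma adjusted p 0.863). Its sign turned to -0.090 with the percentile over detected probes and to -0.10 with quantile normalization. At base 533 it read 275 and 250 without Epo and 191 and 223 with Epo. This was the only probe of the 13 with lower unscaled signal on both Epo arrays. In the limma fit over probes it fell by 1.09 ± 0.16 (SE) on the log2 scale (adjusted p 0.015), and of all 23734 probes 13.0% rose and 12.9% fell. The call was lost without scaling, at -0.35 (adjusted p 0.359), when Epo array 2 was left out (0.057) and with dim probes kept (0.173).

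Within an array, the log2 ratio of the Slc7a5 probe at base 533 to that at base 3363 was -3.41 and -3.60 without Epo and -4.66 and -4.60 with Epo. The 2 probes thus changed unequally whatever factor an array is scaled by, with a change of the ratio of -1.25 in replicate 1 and -1.0 in replicate 2. The corresponding change for the Slc1a5 probes was -0.13, and those of the Slc38a1 probes at bases 4354 and 6788 against base 2748 were 0.019 and 0.032. Labelling was primed on the poly(A) tail, and the base 533 probe lies farther from that end. The part of that distance, and of the second transcript listed for each probe, in the difference was not tested.

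**Figure D2:**
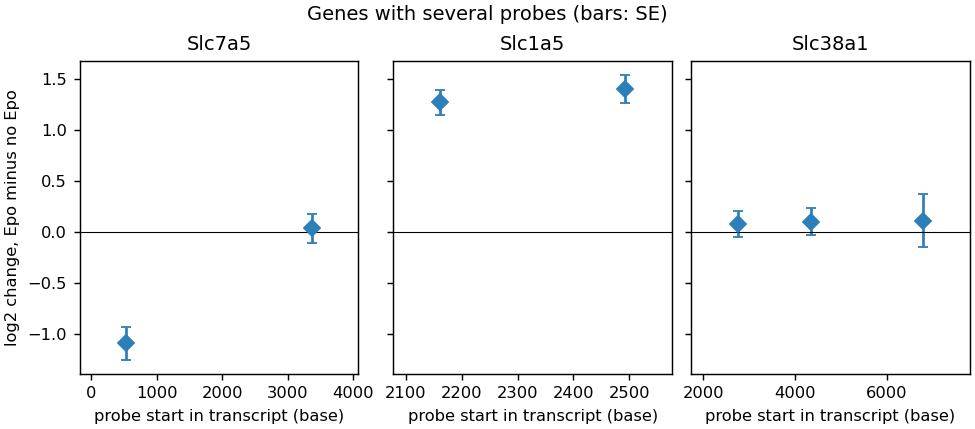
Scaled log2 change with Epo against the start of the probe in the transcript, for the 3 genes with several probes, with SE bars. The Slc7a5 probes at bases 533 and 3363 lie at -1.09 and 0.036, whereas the Slc1a5 probes lie at 1.27 and 1.40 and the Slc38a1 probes at 0.080 to 0.11.

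Slc7a11, the cystine importer, overlapped between groups before scaling. It read 73.3 and 56.9 without Epo and 63.1 and 77.3 with Epo, well above background on all 4 arrays. After scaling both Epo arrays lay lower, with a change of -0.85 in replicate 1 and -0.42 in replicate 2. The change was -0.63 ± 0.21 (SE), with a 95% interval of -1.19 to -0.080 and a limma adjusted p of 0.088. The adjusted p was 0.030 to 0.771 over the alternatives. It passed as lower with the normexp background (-0.51, adjusted p 0.031), with the percentile over detected probes (-0.76, 0.047) and with no-Epo array 2 left out (-0.90, 0.030), and it lay at 0.11 without scaling (0.771).

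**Figure D3:**
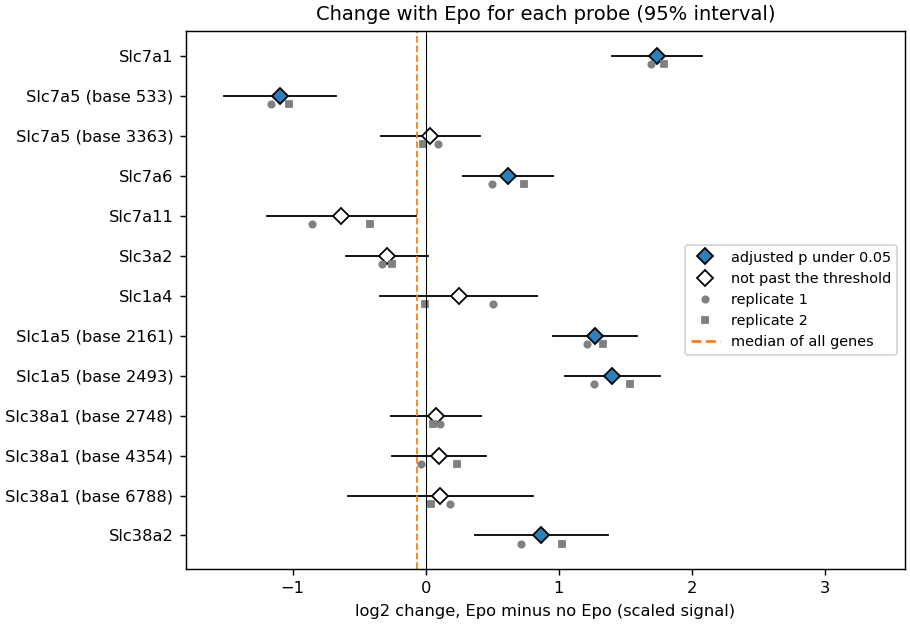
Scaled log2 change with Epo for each probe (diamonds) with its 95% interval from limma, filled where the adjusted p in the fit over probes was under 0.05. Grey marks are the change in each replicate and the dashed line is the median of all genes, at -0.062. Slc7a1, both Slc1a5 probes, Slc38a2 and Slc7a6 lie above 0, and of the remaining 8 probes only the Slc7a5 probe at base 533 is filled.

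**Figure D4:**
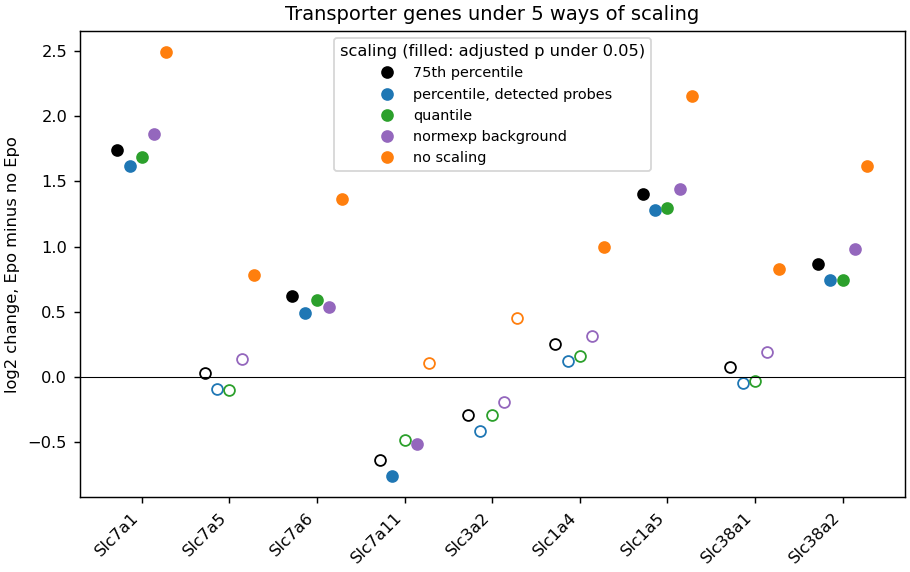
Log2 change of each gene under 5 ways of scaling or background correction, filled where the limma adjusted p was under 0.05. Slc7a1, Slc1a5, Slc38a2 and Slc7a6 are filled and above 0 under all 5, whereas Slc3a2 is open under all 5 and turns from -0.29 to 0.46 without scaling.

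The genes nearest in pattern were sought over the 4 arrays, by the distance between log2 values centred on each gene's mean. For Slc3a2 they were Stk10 (0.011), Angptl6 (0.017) and Kntc1 (0.020). For Slc7a5 at base 3363 they were Mrpl23 (0.018), Ambra1 (0.031) and Rhobtb1 (0.031). With 4 arrays many genes share a pattern. Limma called 0 of these 6 genes, whose adjusted p ran from 0.110 to 0.868. This follows from their choice by values close to those of Slc3a2 and Slc7a5, neither of which was called.

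Promoters were read from RefSeq windows on GRCm38.p6, each from 250 bases before to 50 after a start site. Of the 9 genes, 6 had an entry, with 8 windows in all. Slc7a5, Slc1a5 and Slc38a1 had no entry and were not searched. The window was searched on both strands for motifs known for amino acid shortage, MYC, oxidative stress and STAT factors. The C/EBP-ATF response element, searched as TGATGNAAN, was found at positions -66 and -48 from the Slc7a11 start and at -5 from the Slc1a4 start, and is present in 3.95% of all 32851 windows. The form TGATGCAAT (0.19% of windows) and the E-box CACGTG (7.15%) had no match in the 8 windows. A STAT site, TTCNNNGAA, was found at -183 from the Slc7a11 start and at -146 from 1 of 2 Slc7a1 starts, and 8.3% of windows hold one. The looser antioxidant core TGANNNNGC is in 41.3% of windows and in those of Slc7a11, Slc7a1, Slc7a6, Slc1a4 and Slc38a2. In Slc7a11 one of its 3 matches overlaps a C/EBP-ATF element. A match is a run of letters and not a bound site. The windows with matches to the rarer motifs are given so that the sites can be seen in place. Capitals mark the C/EBP-ATF element and the STAT site.
Slc7a11, chr3:50443604-50443803, minus strand, 190 bases before to 10 after the start: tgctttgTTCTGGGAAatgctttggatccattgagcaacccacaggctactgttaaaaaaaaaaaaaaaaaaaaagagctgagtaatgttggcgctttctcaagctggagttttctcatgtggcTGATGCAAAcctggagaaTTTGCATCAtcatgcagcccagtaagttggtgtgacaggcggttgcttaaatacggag
Slc1a4, chr11:20332704-20332823, minus strand, 110 bases before to 10 after the start: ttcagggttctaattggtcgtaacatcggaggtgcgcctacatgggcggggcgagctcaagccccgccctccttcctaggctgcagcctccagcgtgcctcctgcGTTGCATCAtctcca
Slc7a1, chr5:148392926-148392985, minus strand, from 170 bases before the start: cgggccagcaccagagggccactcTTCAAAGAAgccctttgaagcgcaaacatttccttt

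Most other amino acid carriers were too dim to test, with 16 of 45 listed genes passing the filter. Of these 0 rose and 3 fell, with a median log2 change of -0.32, against 13.1% and 14.3% of all genes. The falls were Slc7a7, another light chain of CD98, at -0.93 ± 0.12 (SE, limma adjusted p 0.011), Slc43a2, a carrier of large neutral amino acids, at -0.57 (0.034), and Slc38a6 at -0.52 (0.034). None of the 3 falls was called without scaling, where Slc7a7 lay at -0.18, Slc43a2 at 0.17 and Slc38a6 at 0.22. The calls of Slc43a2 and Slc38a6 were lost whichever array was left out, and that of Slc7a7 without Epo array 1 (0.051).

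Among transcription factors known to act on carrier genes, and their partners and brakes, 7 of 21 rose and 3 fell (33.3% and 14.3%, against 13.1% and 14.3% of all genes). Mycn and Myc rose by 5.09 and 3.37 (limma adjusted p 0.0031 and 0.0077). The MYC antagonists Mxd3 and Mxd1 fell by 1.57 and 1.10 (adjusted p 0.0049 and 0.036), and Ddit3 also fell, with a change of -0.51 (adjusted p 0.044), which turned to 0.23 without scaling. Atf4, named here because it binds the C/EBP-ATF element, rose by 0.94 ± 0.14 (SE, adjusted p 0.015). Nfe2l2, which acts on the antioxidant element, had a change of -0.20 (adjusted p 0.292), which turned to 0.55 without scaling. The remaining rises of this list were Atf3, Max, Nupr1 and Trib3, at 1.30, 1.06, 0.82 and 0.63 (limma adjusted p 0.0073, 0.013, 0.023 and 0.021). Whether these rises hold with 1 array left out is not given here. Of 28 genes by which mTORC1 senses amino acids 3 were called higher and 1 fell, with a median of -0.0091. These are 10.7% and 3.57%, no more than the 13.1% and 14.3% of all genes. Mios and Rragc rose by 0.72 and 0.53 (adjusted p 0.017 and 0.043). The third was the arginine sensor Castor1, which was not well above background without Epo and passed the filter only through the Epo group, so its call is no support. With its no-Epo values raised to the lowest signal well above background on each array, Castor1 was 1.07-fold higher with Epo. Its log2 change was -0.11 with the normexp background, so no rise is read from it. It is still counted in the 3 and the 10.7%, and in the counts over all lists below. The sestrin Sesn3 fell by 0.64 (0.026), a value that turned to 0.10 without scaling. The leucine-binding sestrins were not called, with Sesn2 at -0.16 (0.624) and Sesn1 at -0.35 (0.082, and 0.040 with the replicate block).

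Enzymes that use glutamine and asparagine rose in 9 of 20 cases, and 0 fell, with a median log2 change of 0.50. That is 45% higher, against 13.1% of all genes higher and 14.3% lower. Ctps, which makes CTP with glutamine nitrogen, rose by 1.66 (limma adjusted p 0.0059), and Ppat, the first enzyme of purine synthesis, by 1.20 (0.013).

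Of 16 genes of arginine and polyamine use 3 rose and 2 fell, or 18.8% and 12.5%, near the 13.1% and 14.3% of all genes. The rises were Srm and Odc1, enzymes of polyamine synthesis, at 1.93 and 1.49 (limma adjusted p 0.0060 and 0.0053), and Amd2 at 1.30 (0.0068), which has a close copy in Amd1. Smox, which oxidises spermine, and Nos2, which uses arginine, fell by 1.33 and 0.99 (0.0064 and 0.044). The Nos2 call was lost in 6 of 13 alternatives, among them the replicate block (0.073). Its change was -0.53 in replicate 1 and -1.45 in replicate 2.

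Of 13 genes listed for cystine, glutathione and thioredoxin use and for oxidative stress, 3 rose and 1 fell, with a median of -0.14. These are 23.1% and 7.69%, against 13.1% and 14.3% of all genes. Txnrd1, Hmox1 and Ggct rose by 1.15, 0.99 and 0.74 (limma adjusted p 0.028, 0.013 and 0.030), and Srxn1 fell by 0.94 (0.018). Of 11 genes that break down branched-chain amino acids, 2 rose (18.2%, near the 13.1% of all genes), namely Dbt, a subunit of the branched-chain keto acid dehydrogenase, by 1.53 and Acadsb by 0.73 (0.0051 and 0.015). The lists were described by counts and medians, with no test of a list as a whole. Over all 7 lists, 37 of 125 tested genes were called, near the 27.4% of all genes called in either direction, and 19 to 35 with 1 array left out. The calls of Rragc and Ddit3 were lost whichever array was left out. Those of Mios and Sesn3 were lost without no-Epo array 2 or either Epo array, and that of Mxd1 without no-Epo array 1 or Epo array 2. No-Epo array 2 or Epo array 1 ended the calls of Txnrd1 and Ggct, and no-Epo array 2 or Epo array 2 that of Nos2. Either Epo array ended those of Acadsb and Csf1r, Epo array 1 those of Hmox1 and Atf4, and Epo array 2 that of Srxn1. Mycn, Myc, Mxd3, Ctps, Ppat, Srm, Odc1, Amd2, Smox and Dbt kept theirs with each array left out. Without scaling, Mxd3 was the only fall in the lists still called (-0.82).

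**Figure D5:**
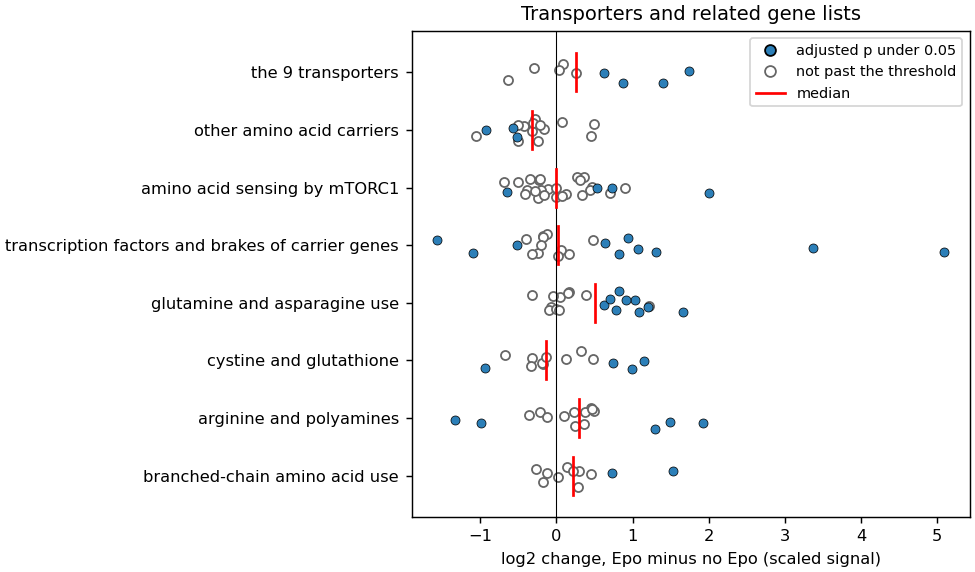
Scaled log2 change with Epo of the 9 transporters and of the tested genes in 7 related lists, 1 point a gene, filled where the limma adjusted p was under 0.05, with the median of each list in red. The transporters have 4 filled points above 0, the other carriers 3 filled points below 0, and the glutamine list 9 filled points above 0.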

How the data were processed

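Per the file headers, the 4 arrays were read by Feature Extraction 10.1.1.1 (Agilent). The authors' software gave a processed intensity for each of 62976 spots, corrected for background and spatial trends, and the deposited intensity was not scaled between arrays. Limma is listed in the submitters' processing notes without a version or a role. Both groups were on 1 slide and 1 scan.

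The log2 of the processed intensity was scaled to each array's 75th percentile over 59305 non-control spots. Outlier spots were left out (9 probes). Only probes that were well above background throughout either group were tested, 23734 in all, for 17554 genes. A gene is its kept probe with the highest mean. Names were updated through RefSeq (GRCm38.p6): of 55681 probes, 26413 were named through an accession, 3859 through a symbol and 735 through a synonym.

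Epo was compared with no Epo in limma 3.58.1 (R 4.3.3, lmFit and eBayes, two-sided, Benjamini-Hochberg), with 2 residual degrees of freedom, over genes and, for second probes, over probes. The fit was tested on simulated data. Alternatives covered background, scaling, filter, outliers, choice of probe, the replicate block and each array left out, and 1, the probe with the largest transcript position, was chosen after seeing the data. The design text gives 2 experiments, read here as the replicate numbers, and same-numbered arrays deviated together (correlation 0.386 across genes, which are not independent replicates). Named genes are the 9 members and, for each list, at most 2 called genes in each direction, and the genes nearest in pattern to Slc3a2 and Slc7a5. The planned comparison of proteins was not run, since no protein table was used here. Slc38a6, Ddit3, Rragc, Amd2, Ggct, Atf3, Atf4, Max, Nupr1, Trib3, Nfe2l2, Sesn1, Sesn2 and the marker genes were named after their values were seen. The members and lists were chosen with earlier results of these data known.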

Additional observations from a re-analysis of the deposited data

How the results depend on the processing

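With 2 arrays a group, leaving out 1 array leaves 1 array in a group and 1 residual degree of freedom. The median SE over genes was then 0.18 to 0.22, against 0.145 with all arrays. A call near the threshold can thus be lost while its log2 change stays near the same value. The number of genes called, 4804, was 8594 without scaling, 7567 with the replicate block and 0 with no filter on dim probes (7148 at an unadjusted p under 0.05 in limma), and 2273 to 3963 with 1 array left out. Probes called, 6144, were 11805, 9588 and 0 (9494 unadjusted), and 2455 to 4992. Genes called in the related lists, 37, were 71, 57 and 0 (43 unadjusted), and 19 to 35. Of the 9 carriers, 7 were called without scaling, 0 without the filter (4 unadjusted) and 2 to 3 with 1 array left out. Of their 13 probes, 6 were called, 10 without scaling, 0 without the filter (6 unadjusted) and 3 to 5 with 1 array left out. The replicate block changed no call of the 9 carriers (4 called). Of the list genes named it ended that of Nos2 (0.073) and called Sesn1 lower (-0.35, 0.040).

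Signs turned as follows, and the cause was not tested beyond the shift of 0.75 that the lack of scaling adds to every gene. The falls of Gata1 and Cebpa are smaller than that shift, so their signs turn without scaling as well. Without scaling Slc7a11 lay at 0.11, Slc3a2 at 0.46, Angptl6 at 0.45, Kntc1 at 0.46, Stk10 at 0.45, Sesn3 at 0.10, Slc43a2 at 0.17, Slc38a6 at 0.22, Ddit3 at 0.23, Nfe2l2 at 0.55, Sesn1 at 0.39 and Sesn2 at 0.58. With the percentile over detected probes Slc7a5 lay at -0.090, Slc38a1 at -0.046 (its probes at bases 4354 and 6788 at -0.026 and -0.014), Ambra1 at -0.081, Mrpl23 at -0.079 and Rhobtb1 at -0.091. With quantile normalization Slc7a5 lay at -0.10, Slc38a1 at -0.032 (base 6788 at -0.013), Ambra1 at -0.046 and Mrpl23 at -0.0021. With the normexp background Castor1 lay at -0.11 and Rhobtb1 at -0.10, and with the mean of its probes Slc7a5 lay at -0.53. With 1 array left out, the lowest and highest values were -0.077 and 0.15 for Slc7a5, -0.038 and 0.54 for Slc1a4, -0.055 and 0.14 for Ambra1, -0.058 and 0.15 for Mrpl23, -0.069 and 0.14 for Rhobtb1, -0.39 and 0.060 for Sesn2, and -0.17 and 0.40 for the Slc38a1 probe at base 6788.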

Other observations

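The Slc38a1 probe at base 6788 followed the replicate number more than Epo. Its scaled log2 level was 11.33 in replicate 1 and 11.90 in replicate 2 without Epo, and 11.51 and 11.94 with Epo. Its log2 ratio to the probe at base 2748 on the same array was -1.99 and -1.32 without Epo and -1.91 and -1.33 with Epo. Both arrays of replicate 2 thus stood apart from both of replicate 1 on this stretch of the transcript, whereas the ratio for the probe at base 4354 was -5.09 and -5.08 without Epo and -5.24 and -4.90 with Epo. This was noticed after the values were seen, on 2 arrays of each replicate number, and was not tested. That same-numbered arrays share an experiment is a reading of the design text. Over all 17554 genes, 4167 differed by replicate number at an unadjusted p under 0.05 in the limma fit with the replicate block. At an adjusted p under 0.05 there were 0.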
